A study of Drosophila melanogaster with 14 samples.

Results

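The serpin genes of Drosophila melanogaster were followed across 3 sets of whole animals with mutations in lola, which encodes many isoforms of a BTB zinc finger transcription factor. A gene was taken as a member when its FlyBase symbol began with Spn and a digit or was nec, without regard to any measured value. This gave 28 genes of the 17558 gene identifiers that were counted, and all 28 were listed in all 14 libraries.

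Serpins are serine protease inhibitors that trap their target protease by presenting a reactive centre loop as bait. In insects they hold back protease cascades in the hemolymph, among them the cascade that activates the cytokine Spätzle ahead of the Toll receptor and the cascade that activates phenoloxidase for melanization. Other fly serpins are secreted in seminal fluid and pass to the female at mating.

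Each mutant chromosome and each control's wild-type chromosome was carried over the deficiency Df(2R)ED2076, so that deficiency was shared by every group. The lola-F set held 3 libraries of lola-F stop / Df(2R)ED2076 embryos and 3 of Wild type / Df(2R)ED2076 control embryos, labelled 15 h after fertilization and made from pools of 100 embryos. The lola-null set held 2 libraries of lola E76 / Df(2R)ED2076 embryos and 2 of Wild type / Df(2R)ED2076 control embryos, labelled with the same age. The lola-O set held 2 libraries of lola-O mutants over the deficiency and 2 of Wild type / Df(2R)ED2076 controls, made from pools of 10 adults frozen within 10 h of eclosion. Embryo mutants were sorted by hand by mCherry, and the sex of the adults was not given in the labels. Whether replicate libraries came from separate crosses is not in the labels, and the p-values cover only the spread among libraries, which may be technical. In whole animals, fewer cells of a type and less RNA per cell cannot be told apart.

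Gene counts were lowest in lola-F control 1 (3326811) and highest in lola-F mutant 3 (22629694). Levels are given as CPM, counts scaled to the size of each library, and 3 counts correspond to between 0.133 and 0.902 CPM. In lola-F control 1, 65.2% of reads had mapped to several places. The targeted gene was checked through FBgn0005630, which only general knowledge, and no table used here, gives as a former identifier of lola. It had 151, 154 and 236 CPM in lola-F mutants, against 274, 259 and 361 CPM in lola-F controls. The library labelled lola-null mutant 1 had 1044 CPM and lola-null mutant 2 had 369 CPM, against 1016 and 1414 CPM in lola-null controls. The library labelled lola-null mutant 1 was thus within the range of its controls, and where leaving it out changed a call, the value without it is given as well. The lola-O mutants (113 and 109 CPM) and their controls (125 and 97.0 CPM) overlapped. The controls of the lola-F and lola-null sets carry the same age label but differed in 7670 of 13238 genes tested, so set, batch and true stage cannot be told apart between them.

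Of the 28 genes, 8 lie on chromosome arm 2L, 12 on 2R, 4 on 3L, 4 on 3R and 0 on X in the BDGP6.54 annotation. Spn88Ea lies on 3R from 15203069 to 15206447 on the minus strand, with its neighbour Spn88Eb 255 bases away on the same strand. A group of 5 genes (Spn42Da, Spn42Db, Spn42Dc, Spn42Dd and Spn42De) lies on 2R between 6875906 and 6888262. Spn42Dc and Spn42Dd overlap by 128 bases on the same strand, so reads of that stretch are uncertain between them. A second group on 2R holds Spn43Aa, Spn43Ab, Spn43Ad and nec between 7147692 and 7158241, and its last 3 genes lie inside pk on the opposite strand. Spn27A overlaps CG34310, and Spn75F lies within CG14082 on the same strand. The library kit was directional, but no source used here gives the strand setting of the counting, so reads in these overlaps are uncertain. Which of the 12 genes on 2R fall inside the deficiency was not determined.

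**Figure D1:**
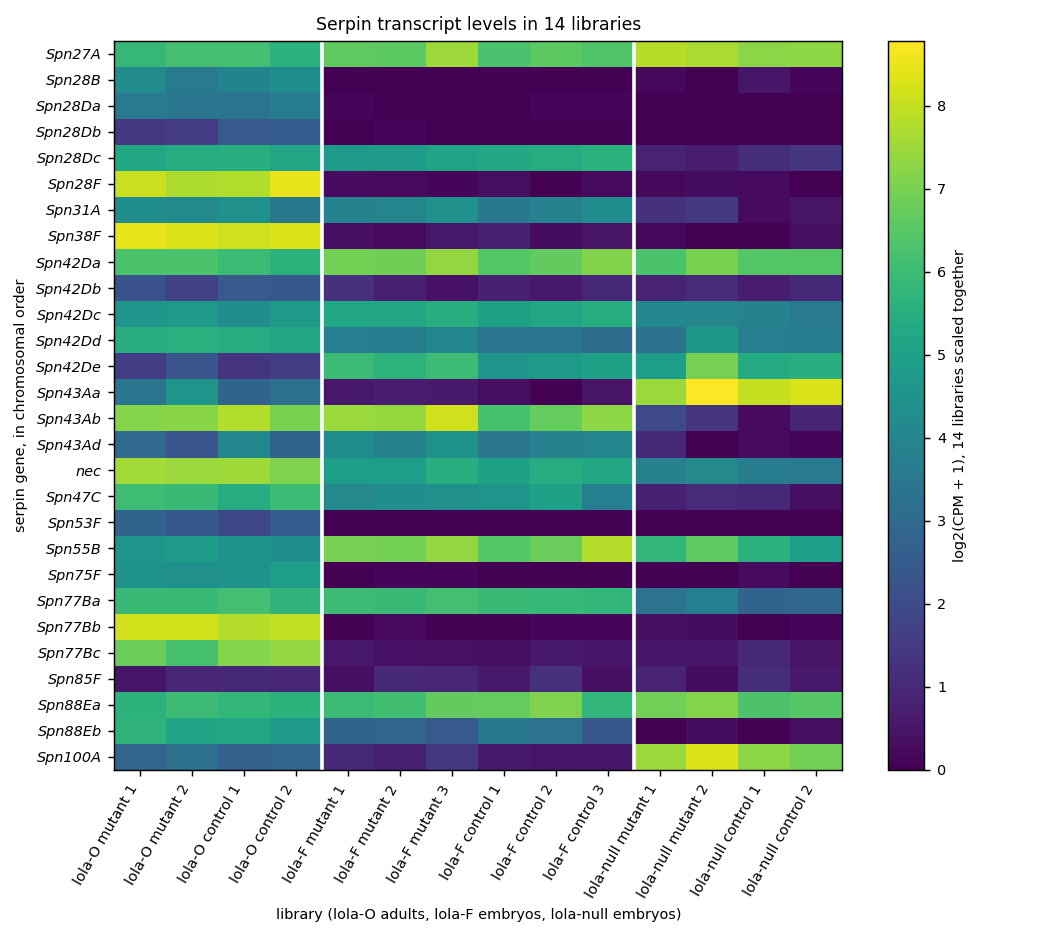
Level of each of the 28 serpin genes in each of the 14 libraries, as log2(CPM + 1) with all libraries scaled together; genes run down the page in chromosomal order, and white lines part the lola-O, lola-F and lola-null sets. Spn28F, Spn38F and Spn77Bb are bright in the 4 adult libraries and dark in the 10 embryo libraries, and Spn43Aa and Spn100A are brightest in the lola-null set.

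The serpin transcripts made up a sum of 2198 and 2047 CPM in lola-O control adults, 722, 848 and 940 CPM in lola-F control embryos, and 864 and 900 CPM in lola-null control embryos, with the 7 controls scaled together. Different genes led each group. Per kilobase of exon, the highest mean levels in lola-O controls were those of Spn38F (288 CPM per kb), Spn28F (268) and Spn77Bb (233), all of them genes of seminal fluid serpins, and the libraries of Spn28F spanned those of the other 2. Spn43Ab (151), Spn77Bc (122) and nec (111) came next, and their libraries overlapped in level with one another. In lola-F controls the order was Spn55B (110 CPM per kb), Spn43Ab (85.7), Spn88Ea (65.9), Spn42Da (42.3) and Spn27A (37.8), and each overlapped with its neighbour in that order. Spn43Aa led the lola-null controls with 221 CPM per kb and stood apart from Spn100A (68.0), Spn27A (67.3), Spn88Ea (55.5) and Spn42Da (33.2). At 195 and 246 CPM per kb in the 2 lola-null controls, Spn43Aa alone held 32.4% of the summed serpin CPM of that group.

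Spn88Ea, a serpin that acts in the Toll protease cascade and is needed for wing expansion, was present at every stage and passed the test in none of the 3 mutants. It had 58.0, 63.5 and 87.4 CPM in lola-F mutants, against 109, 129 and 51.3 CPM in lola-F controls. Control 3 was the lowest of these 6 libraries and the other 2 controls were the highest, so the groups overlapped. The log2 fold change was -0.47 ± 0.34 (SE; edgeR adjusted p = 0.375). In the lola-null set it had 141 and 170 CPM in mutants, against 85.2 and 97.4 CPM in controls. These groups did not overlap, with a log2 fold change of 0.77 ± 0.42 (edgeR adjusted p = 0.245). Without the library labelled lola-null mutant 1 the value was 0.79 and passed (edgeR adjusted p = 0.0429), with mutant 2 as the only mutant library in that fit. In adults, lola-O mutants had 42.6 and 54.9 CPM and lola-O controls 52.0 and 41.7 CPM, a log2 fold change of 0.06 ± 0.21 (edgeR adjusted p = 0.921). The lola-null log2 fold change exceeded that of lola-F by 1.48 ± 0.51, which missed the threshold (edgeR adjusted p = 0.103).

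**Figure D2:**
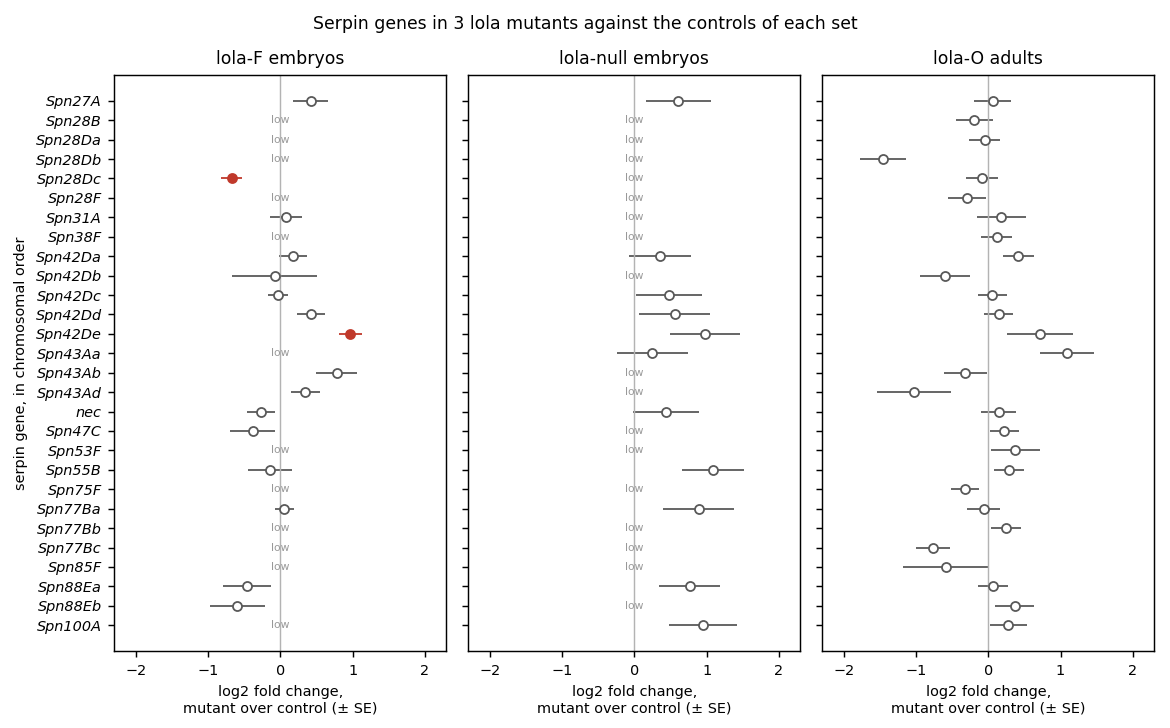
Log2 fold change of each serpin gene, mutant over control, with its standard error, in lola-F embryos (3 and 3 libraries), lola-null embryos (2 and 2) and lola-O adults (2 and 2). Filled red points passed an adjusted p of 0.05, open points did not, and "low" marks genes with too few counts to be tested: Spn28Dc and Spn42De in lola-F are the only filled points of the 3 panels.

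In lola-F mutant embryos, Spn42De was 1.96-fold higher and Spn28Dc, a serpin known to restrain phenoloxidase activation, was lower than in controls. These were the 2 members called of 16 tested, 1 in each direction. Over all genes, 7.06% were called, 3.33% higher and 3.73% lower. Spn42De had 57.2, 45.8 and 55.9 CPM in lola-F mutants, against 24.7, 26.0 and 30.1 CPM in lola-F controls. All 3 mutants were above all 3 controls, with a log2 fold change of 0.97 ± 0.15 (SE; edgeR adjusted p = 0.0242). Spn28Dc had 23.7, 25.9 and 29.5 CPM in lola-F mutants, against 40.2, 40.6 and 45.7 CPM in lola-F controls. Here every mutant was below every control, with a log2 fold change of -0.68 ± 0.14 (edgeR adjusted p = 0.0417). Both calls were lost when mutant 1 or 2 or control 1 or 2 was left out, with log2 fold changes from 0.92 to 1.09 for Spn42De and from -0.71 to -0.58 for Spn28Dc. In each of those 4 fits 0 genes of any kind passed. The sum of 10 midgut marker genes was also higher, at 7024, 6490 and 8976 CPM in lola-F mutants, against 3519, 4333 and 4853 CPM in lola-F controls, with 6 of 10 called higher. The sum of 8 neuron markers was 617, 657 and 427 CPM in lola-F mutants, against 1005, 865 and 1690 CPM in lola-F controls, with 3 of 8 called lower. The fat body, a source of many hemolymph serpins, was marked by a sum of 9 genes at 1600, 1717 and 1349 CPM in lola-F mutants, against 2816, 2453 and 4249 CPM in lola-F controls, with 1 of 3 tested called lower. The sum of 10 hemocyte markers was 4187, 4077 and 3288 CPM in lola-F mutants, against 4948, 5375 and 6584 CPM in lola-F controls, with 1 of 10 called lower. None of these 4 sums overlapped between the groups, and 40.1% of single genes did not overlap either. Sums of other tissue lists are not given for this set. Among those lists, 1 of 4 tested epidermis and cuticle markers was called higher and 1 of 6 tracheal markers lower. The part of these tissues in the serpin results was not tested.

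Among the other members tested in lola-F embryos, Spn43Ab came nearest to the threshold. It had 163, 152 and 245 CPM in lola-F mutants, against 77.3, 99.5 and 149 CPM in lola-F controls. The groups did not overlap, but mutant 2 was close to control 3. The log2 fold change was 0.78 ± 0.28 (edgeR adjusted p = 0.113), and DESeq2, which called 18.4% of all genes, called it (adjusted p = 0.0493). Its neighbours missed the threshold. Spn43Ad had 16.8, 13.1 and 19.1 CPM in lola-F mutants, against 10.8, 13.4 and 14.1 CPM in lola-F controls (0.34 ± 0.20). The gene nec, whose product restrains Toll signalling upstream of the receptor, had 27.3, 26.3 and 39.1 CPM in lola-F mutants, against 33.1, 42.0 and 36.1 CPM in lola-F controls (-0.26 ± 0.19). Among the melanization serpins, Spn27A had 90.9, 85.8 and 156 CPM in lola-F mutants, against 80.5, 90.7 and 77.5 CPM in lola-F controls. Mutant 3 alone stood above the controls. Spn77Ba, which restrains melanization in the trachea, had 59.4, 55.8 and 61.8 CPM in lola-F mutants, against 62.3, 56.5 and 52.1 CPM in lola-F controls (0.05 ± 0.14; edgeR adjusted p = 0.814). Spn42Dd (11.5, 10.8 and 13.4 CPM in mutants, against 9.99, 9.47 and 7.41 CPM in controls) did not overlap between groups, with a log2 fold change of 0.43 ± 0.20 (edgeR adjusted p = 0.181).

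Spn88Eb, beside Spn88Ea, had 5.57, 5.79 and 4.08 CPM in lola-F mutants, against 11.0, 8.76 and 4.05 CPM in lola-F controls. As with Spn88Ea, control 3 was low and mutants lay within the range of the controls. The log2 fold change was -0.60 ± 0.38 (edgeR adjusted p = 0.315). The sum of 11 Toll target genes, none of them a serpin, split the controls in the same way. It was 85.8, 79.2 and 224 CPM in lola-F mutants, against 549, 661 and 143 CPM in lola-F controls, and its part in the values of the 88E pair was not tested. Spn47C likewise had its lowest control value in control 3: 15.4, 17.2 and 17.6 CPM in lola-F mutants, against 23.4, 30.4 and 12.1 CPM in lola-F controls. Its log2 fold change was -0.39 ± 0.31 (edgeR adjusted p = 0.422). Without control 3, edgeR called 4 of 18 tested members. They were Spn42De and Spn28Dc together with Spn43Ab (1.08, adjusted p = 0.0472) and Spn47C (-0.69, adjusted p = 0.0489). Over all genes, fits with 1 library left out called from 0 to 1150, against 719 in the main test. The share of all genes called in the fit without control 3 is not given here, so 4 of 18 cannot be set against it.

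The remaining 5 tested members had log2 fold changes within 0.17 of 0. They were Spn31A, Spn42Da, whose splice forms include a furin inhibitor, Spn42Db, Spn42Dc and Spn55B. Spn55B had 116, 114 and 141 CPM in lola-F mutants, against 93.1, 106 and 210 CPM in lola-F controls, and control 3 was the highest library. Spn42Da had 114, 108 and 144 CPM in lola-F mutants, against 92.5, 98.2 and 133 CPM in lola-F controls. Spn42Dc had 35.1, 34.6 and 39.2 CPM in lola-F mutants, against 33.7, 36.3 and 41.0 CPM in lola-F controls. In all 3 of these genes the groups overlapped. Over the tested members the median log2 fold change was 0.01, against 0.02 over all genes. Groups did not overlap for 4 of 16 members, 3 higher and 1 lower, while 40.1% of all genes did not overlap (20.5% higher and 19.5% lower). The other 12 members reached at most 28 counts in a library, and 2 of them (Spn28B and Spn53F) had 0 counts in all 6.

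**Figure D3:**
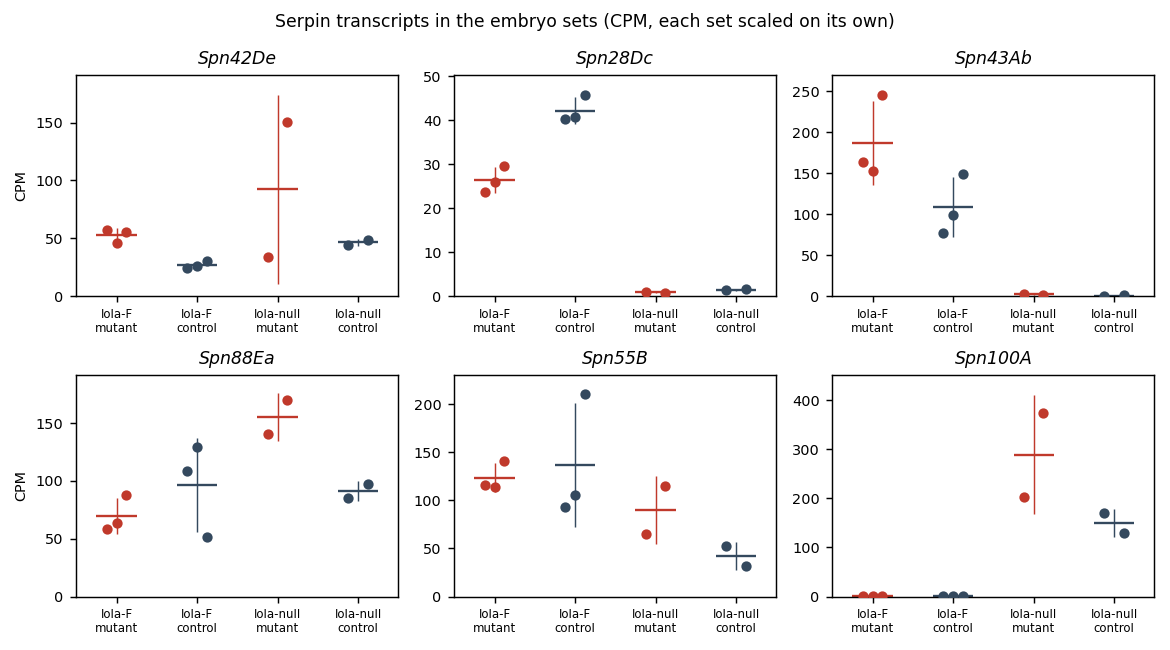
CPM of 6 serpin genes in lola-F mutants and controls and in lola-null mutants and controls, each set scaled on its own; points are libraries, horizontal lines means and vertical lines SD. Spn42De and Spn28Dc separate lola-F mutants from their controls, Spn88Ea separates the lola-null groups only, and Spn100A is near 0 throughout the lola-F set.

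In lola-null embryos, 0 of the 11 tested serpins were called by edgeR, and 0 by DESeq2, while 16.9% of all genes were called by edgeR and 12.9% by DESeq2. At an unadjusted p under 0.05 there was 1 member, Spn55B. It had 64.7 and 114.5 CPM in lola-null mutants, against 52.2 and 32.1 CPM in lola-null controls. Both mutants were above both controls, with a log2 fold change of 1.09 ± 0.43 (edgeR adjusted p = 0.0847). All 11 had a positive log2 fold change with both mutants in the fit, as did 54.7% of all genes, and the median was 0.61, against 0.09 over all genes. Without lola-null mutant 2, 7 of the 11 were positive, and Spn42Da (-0.06), Spn42Dd (-0.36), Spn42De (-0.42) and Spn43Aa (-0.56) were negative. Groups did not overlap for 7 of 11, all higher, while 56.0% of all genes did not overlap (29.3% higher and 26.7% lower).

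The 2 lola-null mutant libraries differed from each other in several serpins. Spn42De had 34.2 CPM in the library labelled lola-null mutant 1 and 150 CPM in mutant 2, against 44.6 and 48.7 CPM in lola-null controls. Spn43Aa had 206 CPM in the library labelled mutant 1 and 527 CPM in mutant 2, against 276 and 342 CPM in controls. Spn42Dd had 10.3 and 29.8 CPM in those mutant libraries, against 13.7 and 13.3 CPM in controls. In each of these 3 genes mutant 1 was below both controls and mutant 2 above both. Without the library labelled lola-null mutant 1, edgeR called 5 members, all higher, and mutant 2 as the lone mutant was assumed to vary as the controls do. Besides Spn88Ea these were Spn42De (1.58, adjusted p = 1.02e-05), Spn55B (1.34, adjusted p = 0.000327), Spn100A (1.21, adjusted p = 0.00096) and Spn42Dd (1.04, adjusted p = 0.0317). In that fit 3112 genes of any kind were called, against 1570 with both mutants.

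Spn100A had 204 and 374 CPM in lola-null mutants, against 170 and 130 CPM in lola-null controls (log2 fold change 0.94 ± 0.47; edgeR adjusted p = 0.191). The melanization serpins Spn27A and Spn77Ba were also above control level in both mutant libraries. Spn27A, which inhibits the protease that activates phenoloxidase and also acts in dorsal-ventral patterning of the early embryo, had 267 and 240 CPM in lola-null mutants, against 164 and 169 CPM in lola-null controls (0.61 ± 0.45; edgeR adjusted p = 0.401). Spn77Ba had 10.7 and 15.4 CPM in lola-null mutants, against 6.52 and 7.38 CPM in lola-null controls (0.89 ± 0.49; edgeR adjusted p = 0.242). For nec the values were 15.4 and 19.8 CPM in lola-null mutants, against 13.3 and 12.6 CPM in lola-null controls (0.44 ± 0.46; edgeR adjusted p = 0.571). Spn42Dc had 18.7 CPM in each lola-null mutant, against 15.0 and 11.9 CPM in lola-null controls, and Spn42Da had 90.6 and 155 CPM in mutants, against 95.2 and 96.1 CPM in controls. None of these 6 genes passed with both mutant libraries in the fit. The other 17 members reached at most 20 counts in a library, and 3 of them (Spn28Da, Spn28Db and Spn53F) had 0 counts in all 4.

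The lola-null mutants also differed from their controls in markers of tissues. The sum of 10 epidermis and cuticle markers was 1380 and 1579 CPM in lola-null mutants, against 12.8 and 8.06 CPM in controls, and 9 of 9 tested were called higher. The sum of 8 neuron markers was 111 and 133 CPM in lola-null mutants, against 682 and 572 CPM in controls, and 7 of 7 tested were called lower. Midgut markers, 10 genes, summed to 149.9 and 151 CPM in lola-null mutants, against 56.5 and 31.0 CPM in controls, with 3 of 4 tested called higher. The sum of 9 fat body markers was 1555 and 1669 CPM in lola-null mutants, against 2832 and 2263 CPM in controls, with 0 of 4 tested called. The median log2 fold change of those 4 was 0.26, so the lower sum does not describe the list as a whole. For 6 tracheal markers it was 1818 and 1938 CPM in lola-null mutants, against 1357 and 1292 CPM in controls, with 1 of 6 called lower although the sum was higher. These 5 sums did not overlap between the groups, and 56.0% of single genes did not overlap either. Sums of other tissue lists are not given for this set. Among those lists, 1 of 7 tested hemocyte markers was called lower. The part of these tissues in the serpin values was not tested.

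In lola-O adults, all 28 serpins were expressed highly enough to be tested and 0 were called, by edgeR or by DESeq2, while edgeR called 0.558% of all genes and DESeq2 2.39%. At an unadjusted p under 0.05 there were 3, Spn28Db, Spn77Bc and Spn43Aa. Spn28Db had 1.48 and 1.61 CPM in lola-O mutants, against 4.39 and 4.11 CPM in lola-O controls, from 44 and 94 counts in all. The mutants were well below the controls, with a log2 fold change of -1.46 ± 0.32 (edgeR adjusted p = 0.0947), and DESeq2 gave an adjusted p of 0.152. The edgeR adjusted p was 0.0399 without the filter on low counts and 0.047 with a replicate block. Those 2 fits called 415 and 669 genes of any kind, against 72 in the main test. Spn77Bc, a seminal fluid serpin, had 97.9 and 63.6 CPM in lola-O mutants, against 136 and 139 CPM in lola-O controls (-0.77 ± 0.24; edgeR adjusted p = 0.190). Spn43Aa had 8.62 and 19.3 CPM in lola-O mutants, against 5.82 and 7.14 CPM in lola-O controls (1.08 ± 0.38; edgeR adjusted p = 0.223). Mutant 2 carried most of that difference, and without mutant 1 the log2 fold change was 1.54 and passed (edgeR adjusted p = 0.0269), with the lone mutant assumed to vary as the controls do.

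The 5 other seminal fluid serpins did not pass in lola-O adults. Spn38F had 317 and 266 CPM in lola-O mutants, against 267 and 273 CPM in lola-O controls. Spn28F had 235 and 179 CPM in lola-O mutants, against 205 and 303 CPM in lola-O controls. Spn77Bb had 254 and 247 CPM in lola-O mutants, against 211 and 213 CPM in lola-O controls, and its groups did not overlap (log2 fold change 0.24 ± 0.20; edgeR adjusted p = 0.612). Spn75F averaged 18.2 ± 1.13 CPM in mutants and 22.8 ± 3.23 CPM in controls (SD, n = 2 each), without overlap (-0.33 ± 0.19; edgeR adjusted p = 0.456), and Spn53F averaged 4.47 ± 0.988 CPM in mutants and 3.40 ± 1.11 CPM in controls. The sum of 12 male accessory gland and seminal fluid markers was 1349 and 1026 CPM in lola-O mutants, against 1617 and 1790 CPM in lola-O controls, and its part in the values of these serpins was not tested. Acp76A, a serpin gene of that list whose symbol the rule does not match, differed by -0.53 ± 0.26 on the log2 scale (edgeR adjusted p = 0.368).

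**Figure D4:**
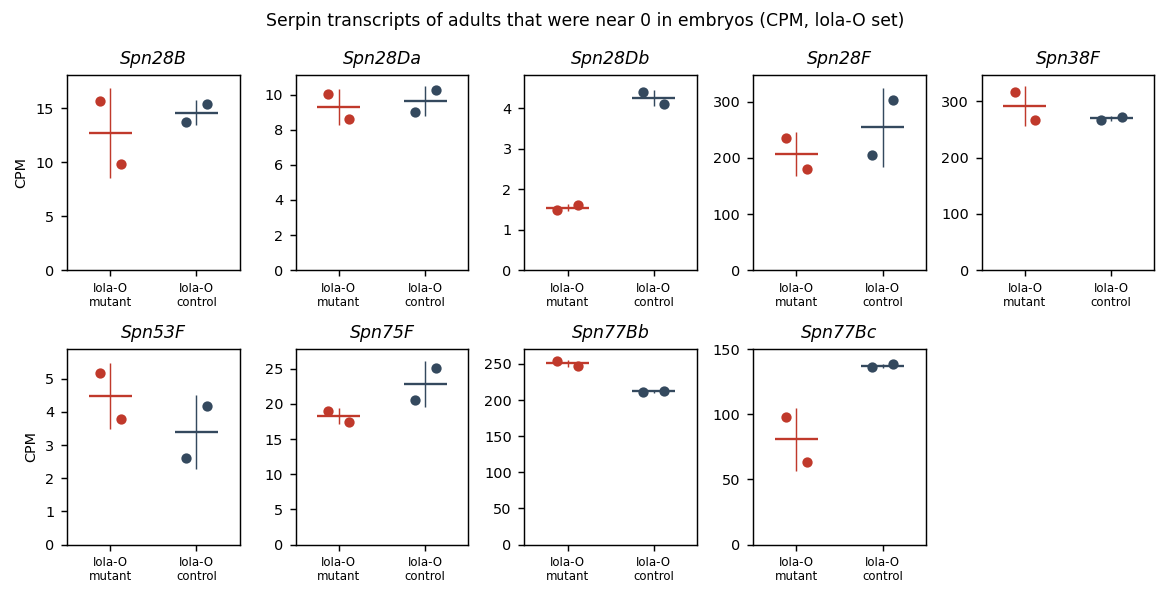
CPM in lola-O mutant and lola-O control adults of 9 serpin genes that were near 0 in embryos, chosen for the plot after their values were seen; points are libraries, horizontal lines means and vertical lines SD, and every axis starts at 0. Spn28Db and Spn77Bc lie lower in mutants, Spn77Bb slightly higher, and none passed the test.

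Serpins known from the Toll and melanization cascades did not pass in lola-O adults. The gene nec had 163 and 151 CPM in lola-O mutants, against 173 and 113 CPM in lola-O controls. Spn27A had 49.5 and 61.6 CPM in mutants and 66.4 and 40.5 CPM in controls, and Spn28Dc had 32.8 and 36.1 CPM in mutants and 43.3 and 30.0 CPM in controls. In these 3 genes the controls spanned the mutants. Spn77Ba had 53.4 and 52.4 CPM in lola-O mutants, against 67.0 and 43.9 CPM in lola-O controls, and Spn42Dd had 38.1 and 39.7 CPM in mutants, against 40.1 and 30.4 CPM in controls. Spn88Eb had 44.8 and 29.5 CPM in lola-O mutants, against 34.4 and 23.6 CPM in lola-O controls. These 3 overlapped between groups as well. Spn43Ad had the largest standard error of the genes above 5 CPM in either group, with 6.16 and 3.37 CPM in lola-O mutants against 15.2 and 4.98 CPM in lola-O controls (-1.03 ± 0.52; edgeR adjusted p = 0.379). Spn43Ab had 127 and 126 CPM in lola-O mutants, against 208 and 108 CPM in lola-O controls, so control 1 was high for both genes.

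Of the other members above 5 CPM in adults, Spn42Da had 67.7 and 66.6 CPM in lola-O mutants, against 59.4 and 41.6 CPM in lola-O controls. It was higher without overlap, and missed the threshold (0.41 ± 0.21; edgeR adjusted p = 0.389). Spn47C had 57.1 and 52.5 CPM in mutants and 40.0 and 53.7 CPM in controls, and Spn55B had 19.9 and 24.1 CPM in mutants and 20.2 and 16.0 CPM in controls. Spn42Dc had 20.1 and 22.7 CPM in mutants and 17.9 and 23.1 CPM in controls, and Spn31A averaged 15.5 ± 1.25 CPM in mutants and 13.9 ± 7.21 CPM in controls (SD, n = 2 each). Spn28B had 15.6 and 9.80 CPM in mutants and 13.8 and 15.4 CPM in controls, and Spn28Da had 10.0 and 8.59 CPM in mutants and 9.03 and 10.2 CPM in controls. These 6 overlapped between groups. Spn100A, at 5.54 and 7.23 CPM in mutants and 5.23 and 5.27 CPM in controls, did not (0.28 ± 0.26; edgeR adjusted p = 0.650).

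The same 9 fat body markers summed to 10608 and 9289 CPM in lola-O mutants, against 2906 and 2575 CPM in lola-O controls, with Lsp2 and Lsp1gamma called higher. The sum of 5 female and yolk markers was 166 and 283 CPM in lola-O mutants, against 15.1 and 9.96 CPM in lola-O controls, with Yp3 called higher. Tracheal markers summed to 1352 and 1466 CPM in lola-O mutants, against 2203 and 1810 CPM in lola-O controls, and neuron markers to 409 and 221 CPM in mutants, against 506 and 419 CPM in controls. Epidermis and cuticle markers summed to 982 and 1007 CPM in mutants, against 829 and 694 CPM in controls, and 0 genes of these 3 lists were called. None of these 5 sums overlapped between the groups, and the share of single genes without overlap is given below. Sums of midgut and hemocyte markers are not given for this set. In those lists, 1 of 9 tested midgut markers was called higher and 0 of 10 hemocyte markers were called. The part of these tissues in the serpin values was not tested. Over all 28 genes the median log2 fold change was 0.06, against 0.01 over all genes tested. Groups did not overlap for 9 members, 5 higher and 4 lower, while 48.7% of all genes did not overlap (25.3% higher and 23.4% lower).

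The mutant effects of the 2 embryo sets were compared directly for 18 members in 1 model of the 10 embryo libraries. Only Spn31A was called, among 8.59% of all genes: its log2 fold change in the lola-null set exceeded that in the lola-F set by 2.55 ± 0.56 (SE; edgeR adjusted p = 0.0216). DESeq2 called 0 members and 11.3% of all genes. The edgeR call rests on few reads, since Spn31A had 18 counts over both lola-null mutants and 4 over both lola-null controls. In the lola-null set alone it was below the filter on low counts, so it entered the joint model through its lola-F counts. In CPM it had 1.64 and 2.05 in lola-null mutants, against 0.217 and 0.410 in lola-null controls. In the lola-F set it had 12.8, 13.9 and 18.2 CPM in mutants, against 11.0, 13.5 and 17.6 CPM in controls. Next came Spn77Ba, with a difference of 1.06 ± 0.30 (edgeR adjusted p = 0.0524). It passed without the library labelled lola-null mutant 1 (1.21, edgeR adjusted p = 0.0394) and after removal of the trend with gene length (1.10, edgeR adjusted p = 0.0297), and its value was between 0.56 and 1.21 with single libraries left out. The Spn42De effects were 0.98 in lola-null and 0.97 in lola-F embryos, and their difference in the joint model was 0.18 ± 0.59 (edgeR adjusted p = 0.897). Without lola-null mutant 2 that difference turned to -1.08 (edgeR adjusted p = 0.0364), and it was -0.03 with upper quartile scaling. The median difference over all genes was 0.31 with the main scaling and 0.00 with upper quartile scaling, under which Spn31A kept its call (2.24, edgeR adjusted p = 0.0472) and Spn77Ba had 0.78 (edgeR adjusted p = 0.218).

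Between the controls of the 2 embryo sets, 15 of 28 serpins differed, 10 higher and 5 lower in lola-F controls. Over all genes 57.9% differed, 27.8% higher and 30.1% lower. The filter took in the adult controls too, so these counts include genes near 0 counts in both embryo groups. Of the 28 members, 7 had at most 3 counts in each embryo group, Spn28B among them. Over the lola-null controls, Spn43Ad and Spn88Eb had 2 counts each, Spn31A 4, Spn47C 7 and Spn43Ab 8. Over the lola-F controls, Spn43Aa had 5 and Spn100A 11. All of these passed the filter through other control groups, so their calls could hardly go the other way. The share over all genes includes such genes too. These limits also hold for the counts of groups without overlap given below. Within the 43A group the directions were opposite: Spn43Aa was nearly absent from lola-F controls, where Spn43Ab, Spn43Ad and nec were all higher. Spn43Aa had 0.265, 0 and 0.366 CPM in lola-F controls, against 252 and 318 CPM in lola-null controls. That was 5 counts in all against 3768, a log2 fold change of -10.32 ± 0.45 (SE; edgeR adjusted p = 2.35e-07). Spn43Ab had 77.9, 105 and 159 CPM in lola-F controls, against 0.199 and 0.891 CPM in lola-null controls (7.51 ± 0.61; edgeR adjusted p = 3.08e-06). The pair lies 2372 bases apart on opposite strands, and a different one of the 2 was the higher in each set of embryo controls. Spn43Ad, with 337 counts in lola-F controls against 2 in lola-null controls, was 90.3-fold higher, with a 95% counting interval of 24.8 to 749. For nec the values were 33.4, 44.4 and 38.3 CPM in lola-F controls, against 12.2 and 11.7 CPM in lola-null controls (1.70 ± 0.25; edgeR adjusted p = 0.0002).

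Spn100A followed Spn43Aa. It had 0.530, 0.430 and 0.458 CPM in lola-F controls, against 156 and 121 CPM in lola-null controls (-8.19 ± 0.29; edgeR adjusted p = 1.87e-07). The melanization serpins Spn28Dc and Spn77Ba were higher in lola-F controls, while Spn27A was lower. Spn28Dc had 40.6, 42.9 and 48.6 CPM in lola-F controls, against 1.20 and 1.53 CPM in lola-null controls (4.98 ± 0.33; edgeR adjusted p = 8.99e-07). Spn77Ba had 62.8, 59.6 and 55.4 CPM in lola-F controls, against 5.98 and 6.88 CPM in lola-null controls (3.19 ± 0.27; edgeR adjusted p = 3.66e-06). Spn27A had 81.1, 95.7 and 82.4 CPM in lola-F controls, against 150 and 157 CPM in lola-null controls (-0.83 ± 0.23; edgeR adjusted p = 0.00941). Without lola-null control 2 the last of these missed the threshold (edgeR adjusted p = 0.0546).

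Further members higher in lola-F controls were Spn31A (log2 fold change 5.52 ± 0.59), Spn47C (5.31 ± 0.61), Spn55B (1.89 ± 0.39) and Spn42Dc (1.65 ± 0.25). Spn88Eb had 175 counts in lola-F controls against 2 in lola-null controls, a ratio of 46.9 with a 95% counting interval of 12.8 to 390. Its neighbour Spn88Ea, 255 bases away, had 110, 136 and 54.5 CPM in lola-F controls, against 78.1 and 90.8 CPM in lola-null controls (0.24 ± 0.33; edgeR adjusted p = 0.574). So the pair, though adjacent and on 1 strand, had unlike levels: Spn88Eb was nearly absent where Spn88Ea was not. Without lola-F control 3, Spn88Ea passed as well, at 0.55 (edgeR adjusted p = 0.0394). Spn42De was lower, at 24.9, 27.4 and 32.0 CPM in lola-F controls against 40.9 and 45.3 CPM in lola-null controls (-0.61 ± 0.21; edgeR adjusted p = 0.0316). That call was lost in DESeq2 (adjusted p = 0.185), with upper quartile scaling (edgeR adjusted p = 0.0728) and when any of 6 single controls was left out. The last call, Spn28B, rests on 0 counts in lola-F controls against 3 in lola-null controls, for which no fold is given.

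Members that did not pass included Spn42Da, at 93.3, 104 and 141 CPM in lola-F controls against 87.3 and 89.5 CPM in lola-null controls, and Spn42Dd, at 10.1, 9.99 and 7.87 CPM against 12.6 and 12.3 CPM. Groups did not overlap for 17 of 28 members, 11 higher and 6 lower, while 68.6% of all genes did not overlap (32.4% higher and 36.2% lower). Over all 28 members the median log2 fold change was 0.30, against 0.00 over all genes. Over the 21 members with more than 3 counts in a group it was 1.22, but the set of all genes was not cut in that way. All 11 Toll target genes were higher in lola-F controls, and so were 9 of 10 midgut markers, whose sum was 3548, 4573 and 5157 CPM in lola-F controls, against 51.8 and 28.9 CPM in lola-null controls. The part of these tissues in the serpin differences was not tested.

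**Figure D5:**
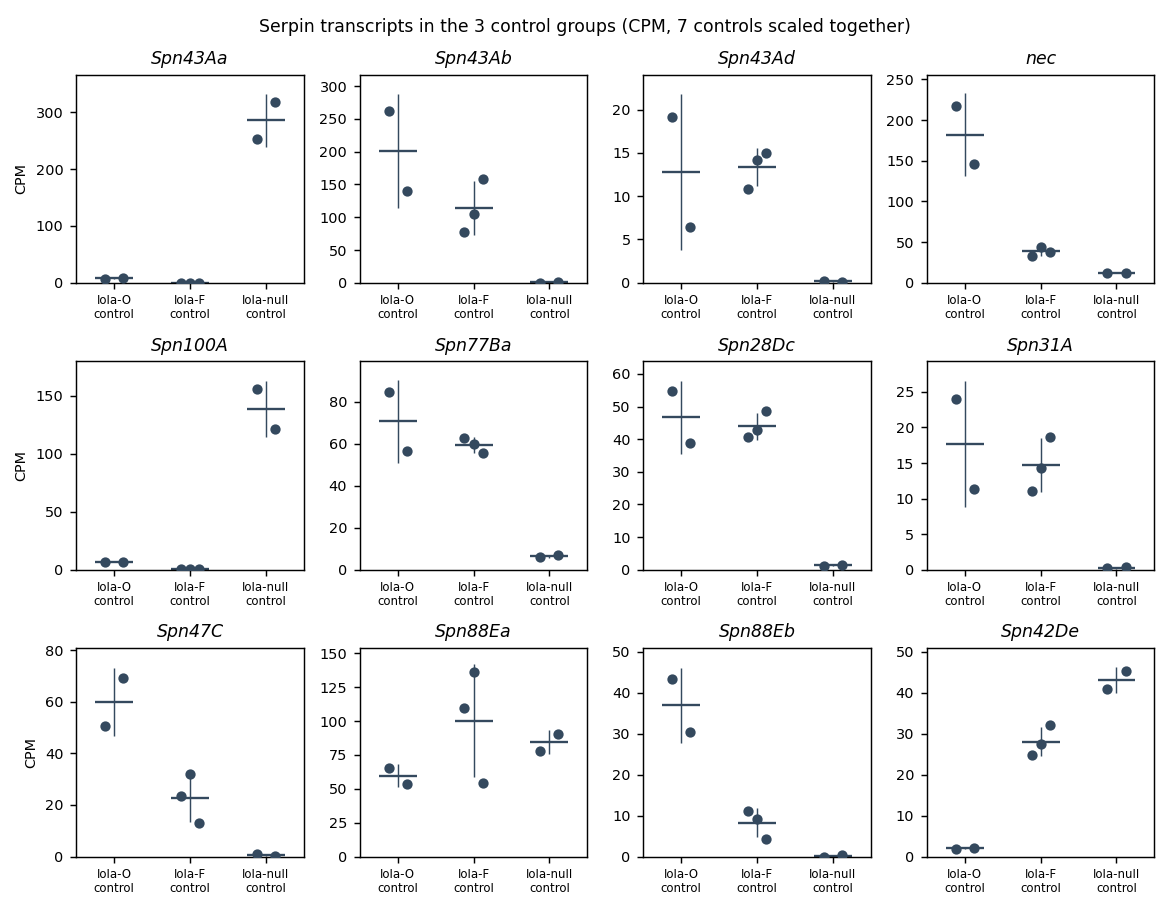
CPM of 12 serpin genes in lola-O control adults, lola-F control embryos and lola-null control embryos, with the 7 controls scaled together; points are libraries, horizontal lines means and vertical lines SD. Spn43Aa and Spn100A are high only in lola-null controls, Spn43Ab, Spn28Dc, Spn31A and Spn77Ba are low only there, and Spn88Ea is present in all 3 groups.

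Between lola-O control adults and lola-F control embryos, 19 of 28 serpins differed, 16 higher and 3 lower in adults. These controls belong to different sets, so set, batch and stage cannot be told apart in this comparison either. Over all genes 64.0% differed, 39.9% higher and 24.0% lower. The filter took all control groups together, so genes near 0 counts in embryos were tested only through their adult counts. For such genes a call could only be higher in adults. Among the members they included Spn28B, Spn28Da, Spn28Db, Spn28F, Spn38F, Spn53F, Spn75F, Spn77Bb and Spn77Bc, and the share over all genes includes such genes too. The largest differences were in seminal fluid serpins, which were at or near 0 counts in embryos. Spn77Bb had 266 and 275 CPM in lola-O controls, against 0, 0.107 and 0.0915 CPM in lola-F controls. With 4727 counts against 2, the ratio was 3259, with a 95% counting interval of 902 to 26921. Spn28F had 258 and 391.9 CPM in lola-O controls, against 0.265, 0 and 0.183 CPM in lola-F controls, a ratio of 2726 with an interval of 932 to 13224. Spn38F had 336 and 353 CPM in lola-O controls, against 0.795, 0.215 and 0.366 CPM in lola-F controls (log2 fold change 9.76 ± 0.38; edgeR adjusted p = 3.92e-08). Spn77Bc had 172 and 179 CPM in lola-O controls, against 0.265, 0.537 and 0.458 CPM in lola-F controls (8.54 ± 0.32; edgeR adjusted p = 3.4e-08). Spn75F (25.9 and 32.4 CPM) and Spn53F (3.30 and 5.40 CPM) were at 0 counts in all 3 lola-F controls, which against a floor of 3 counts over the group made them at least 239-fold and at least 36.8-fold higher in adults. The 12 male accessory gland and seminal fluid markers were all higher too, with sums of 2039 and 2311 CPM in lola-O controls, against 0.795, 0.430 and 0.458 CPM in lola-F controls.

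A trio of genes on 2L, Spn28B, Spn28Da and Spn28Db, was likewise at or near 0 counts in lola-F controls and higher in adults. Spn28B had 17.4 and 19.9 CPM in lola-O controls, against 0 counts in lola-F controls, and was at least 152-fold higher. Spn28Db had 5.54 and 5.31 CPM in lola-O controls, against 0 counts in lola-F controls, and was at least 43.2-fold higher. Spn28Da, 158 bases from Spn28Db, had 11.4 and 13.2 CPM in lola-O controls against 0, 0.107 and 0.0915 CPM in lola-F controls, a ratio of 150 with an interval of 41.1 to 1249.

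Of the immune serpins, nec was higher in adults, with 218 and 146 CPM in lola-O controls, against 33.4, 44.4 and 38.3 CPM in lola-F controls (2.23 ± 0.22; edgeR adjusted p = 1.23e-05). Spn42Dd, which acts in Toll signalling, had 50.6 and 39.3 CPM in lola-O controls, against 10.1, 9.99 and 7.87 CPM in lola-F controls (2.28 ± 0.23; edgeR adjusted p = 1.27e-05). Spn88Eb had 43.4 and 30.5 CPM in lola-O controls, against 11.1, 9.24 and 4.30 CPM in lola-F controls (2.20 ± 0.40; edgeR adjusted p = 0.000775). Spn88Ea had 65.6 and 53.9 CPM in lola-O controls, against 110, 136 and 54.5 CPM in lola-F controls, and missed the threshold (-0.75 ± 0.34; edgeR adjusted p = 0.0781). Without lola-F control 3 it passed at -1.05 (edgeR adjusted p = 0.00102), and with upper quartile scaling it passed at -1.07 (edgeR adjusted p = 0.0261). The melanization serpins Spn28Dc (54.7 and 38.8 CPM in lola-O controls) and Spn77Ba (84.5 and 56.7 CPM) spanned or bordered the levels of the lola-F controls given above, with log2 fold changes of 0.08 ± 0.23 and 0.25 ± 0.22. Neither passed, but Spn77Ba did after removal of the trend with gene length (0.58; edgeR adjusted p = 0.0268).

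Spn43Aa was higher in adults than in lola-F controls, at 7.34 and 9.22 CPM (5.22 ± 0.50; edgeR adjusted p = 8.17e-06), as was Spn100A at 6.59 and 6.80 CPM (3.82 ± 0.31; edgeR adjusted p = 2.33e-06). With 5 and 11 counts over the lola-F controls, these 2 genes passed the filter only through adult or lola-null counts. A call could therefore hardly be lower in adults. Both stayed far below their level in lola-null controls. Spn47C (50.5 and 69.3 CPM in lola-O controls, against 23.6, 32.1 and 12.9 CPM in lola-F controls) and Spn42Db (5.39 and 4.57 CPM, against 0.795, 0.537 and 1.01 CPM) were also higher, by 1.39 ± 0.38 and 2.64 ± 0.45 on the log2 scale. The Spn47C call was lost without lola-O control 2 (1.12; edgeR adjusted p = 0.0994).

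The 3 members lower in adults were Spn42De, Spn55B and Spn42Da. Spn42De had 1.80 and 2.14 CPM in lola-O controls, against 24.9, 27.4 and 32.0 CPM in lola-F controls (-3.81 ± 0.28; edgeR adjusted p = 1.2e-06). It was the member that rose in lola-F mutants. Spn55B had 25.5 and 20.7 CPM in lola-O controls, against 93.8, 112 and 223 CPM in lola-F controls (-2.64 ± 0.41; edgeR adjusted p = 0.000242). Spn42Da had 74.9 and 53.8 CPM in lola-O controls, against 93.3, 104 and 141 CPM in lola-F controls (-0.81 ± 0.24; edgeR adjusted p = 0.0141). That call was lost without lola-O control 2 (edgeR adjusted p = 0.099) and after removal of the trend with gene length (-0.31; edgeR adjusted p = 0.238). Within the 42D group, then, adjacent genes differed in direction: Spn42Db and Spn42Dd were higher in adults, and Spn42Da and Spn42De were lower. Spn42Dc had 22.6 and 29.8 CPM in lola-O controls, against 33.9, 38.4 and 43.6 CPM in lola-F controls, and missed the threshold (-0.56 ± 0.24; edgeR adjusted p = 0.0612).

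The other members that did not differ between adults and lola-F controls in edgeR were Spn27A, Spn31A, Spn43Ab, Spn43Ad and Spn85F. Spn43Ab had 263 and 140 CPM in lola-O controls, against 77.9, 105 and 159 CPM in lola-F controls (0.82 ± 0.36; edgeR adjusted p = 0.0677). DESeq2 called it (adjusted p = 0.0456). Spn85F was low in all 14 libraries, with a highest group mean of 1.11 CPM. Over the 28 members the median log2 fold change was 2.21, unchanged with the 4 genes at 0 embryo counts set to their bound, against 0.23 over all genes. Both medians include genes that passed the filter only through their adult counts. Groups did not overlap for 20 members, 16 higher and 4 lower, while 78.7% of all genes did not overlap (46.5% higher and 32.2% lower). With upper quartile scaling, 16 members were higher and 6 lower, as Spn27A, Spn42Dc and Spn88Ea then passed too. The median of all genes moved to -0.06 under that scaling.

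The wider Toll and melanization genes gave the following counts in the same tests. In lola-F mutants, 0 of 11 tested proteases and ligand genes of the Toll cascade, 0 of 8 recognition receptors and 0 of 11 Toll targets were called. Of 9 receptor and intracellular pathway genes 1 was lower, Dif (-0.75 ± 0.18; edgeR adjusted p = 0.048), and of 8 melanization genes 1 was lower, ple (-1.85 ± 0.30; edgeR adjusted p = 0.0247). The lowest p among Toll targets was that of the Bomanin gene BomS1 (-2.03 ± 0.49; edgeR adjusted p = 0.0516). In lola-null mutants, 1 of 11 cascade genes was lower, spz (-1.85 ± 0.49; edgeR adjusted p = 0.00662), as were 2 of 9 receptor and pathway genes, Gprk2 and dl. Of 7 melanization genes there, Ddc and yellow-f2 were higher and Sp7 was lower, and no Toll target was abundant enough to be tested. In lola-O mutants, 0 of these genes were called in any of the lists. SPE, which encodes the protease that cleaves Spätzle, had log2 fold changes of -1.19 ± 0.37 in lola-F mutants and 1.14 ± 0.49 in lola-null mutants, neither past the threshold. The difference between those effects, 2.55 ± 0.63, passed (edgeR adjusted p = 0.0337). SPE was the 1 call among 12 cascade genes in that comparison of effects, which called 8.59% of all genes. There, 1 of 9 receptor and pathway genes was higher, and of 9 melanization genes 3 were higher and 1 lower. Of 8 recognition receptors and 11 Toll targets 0 were called. Of 3 proprotein convertase genes, Fur1 was lower in lola-null mutants (-1.88 ± 0.42; edgeR adjusted p = 0.00178), and of 4 wing expansion hormone genes 0 were called in any of the 3 mutants.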

How the data were processed

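RNA of whole embryos or adults was made into directional libraries from 1 µg of RNA, per the labels' protocols. The submitters' processing notes name STAR 2.5.0c, HTSeq 0.6.1p1 and the BDGP6 build as what the authors used. Each deposited file holds whole-number counts per gene, without normalization, and summary rows that stayed out of library sizes and tests. Those rows held 66.7% of reads in lola-F control 1 and 18.6% to 44.5% in the lola-null set. Not given in the sources used here are the annotation release, the strand setting and how many lola-null embryos were pooled.

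Of 17558 identifiers, 17252 matched the BDGP6.54 annotation. Symbols, positions and exon lengths come from it, and no sequence table was used. Tests were run over all genes in R 4.3.3 with edgeR 4.0.16 (filterByExpr, TMM scaling, quasi-likelihood F test, Benjamini-Hochberg adjustment at 0.05), each mutant against the controls of its own set. The 7 controls formed 1 fit for the control comparisons, which share the lola-F controls, and the 10 embryo libraries 1 fit for the difference between mutant effects. Each standard error was obtained from the log2 fold change and the F value (fold change over root F). CPM use TMM library sizes of the set named, and comparisons between genes use CPM per kb of exon. DESeq2 1.42.0, other scalings, no filter, a length correction, a replicate block and leaving out each library were alternatives. Fold bounds take 3 counts over the group as a floor, and counting intervals are exact binomial ones for the 2 summed counts at 95%; both cover counting error only. The test was first run on simulated counts.

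The members, the 15 lists of other genes and the tests were chosen with earlier results of these data known. Values per library are printed for members called in a mutant comparison or averaging 5 CPM or more in a group, and up to 3 genes per other list with the smallest p are named. No pair of replicate libraries was alike within counting noise: chi-square over its degrees of freedom ran between 3.19 and 89.9.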

Additional observations from a re-analysis of the deposited data

Results flagged for a closer look

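Spn31A was called for a difference in mutant effect between the 2 embryo sets. Its log2 fold change in lola-null embryos exceeded that in lola-F embryos by 2.55 (edgeR interaction test, adjusted p = 0.0216). The lola-null side rests on 18 counts in mutants and 4 in controls, and Spn31A was below the filter when that set was tested alone. The call was lost in DESeq2 (2.52, adjusted p = 0.0628), without a filter on low counts (2.08, edgeR adjusted p = 0.0986) and when any of 6 single libraries was left out (lola-F mutant 1 or 2, lola-F control 2 or 3, or either lola-null control). The difference stayed positive in those fits, between 1.88 and 3.06.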

How the results depend on the processing

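Of 1600 values of 129 results for single serpin genes under the alternatives, 1532 stayed on their side of the threshold, 40 lost a call, 27 gained one and 1 changed sign with a call. Of the 1532, 1430 kept their sign and 102 uncalled values changed it, 74 of them with a library left out. The change of sign with a call was the Spn42De difference between embryo sets, 0.18 with all libraries, -1.08 without lola-null mutant 2 and 0.83 without lola-null mutant 1.

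Counts of serpins called in lola-F mutants (2) were 1 with upper quartile scaling, 1 with no filter and 0 with a replicate block, and from 0 to 4 with single libraries left out. For all genes (719) the counts were 1382, 427 and 0, with 1890 in DESeq2, 265 with the length trend removed, and from 0 to 1150 with libraries left out. In lola-null mutants the serpin count (0) was from 0 to 5 and the count of all genes (1570) from 546 to 3112 with libraries left out. In lola-O mutants the serpin count (0) was 1 with no filter, 1 with the replicate block and from 0 to 1 with libraries left out. For all genes (72) it was 117 with upper quartile scaling, 415 with no filter, 326 in DESeq2, 669 with the block and from 5 to 227. For the difference between embryo sets the serpin count (1) was 0 with no filter, 0 in DESeq2, 2 with the length trend removed and from 0 to 2. For all genes (932) it was 599 with the block and from 293 to 1569. Counts between controls (15 and 19 serpins) stayed within 13 to 15 and 18 to 21 with libraries left out.

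Deviations of same-numbered libraries correlated at -0.02, -0.18 and -0.12 in the lola-F set, -0.29 in the lola-null set and 0.10 in the lola-O set. With 2 libraries per group a set gives only 1 such value, so whether numbers pair those libraries cannot be told from it. In the lola-O set the replicate block called 669 genes, against 72 without it. Crossing the lola-null numbers, chosen after seeing the data, called 1 of 11 tested serpins, Spn55B. It called 2095 of 9288 genes of any kind, against 1570 in the main test. The share of higher calls over all genes in lola-F mutants was 68.2% with upper quartile scaling and 59.6% with the length trend removed, against 47.1% in the main test. In lola-O mutants it was 48.8% in DESeq2 and 40.5% with the block, against 59.7%. In adults against lola-F controls it was 51.8% with upper quartile scaling, against 62.4%. For the difference between embryo sets it was 59.7% with upper quartile scaling and 50.0% with no filter, against 80.4%. The causes were not tested. Depth limits members under 3 counts in a library, for which absence cannot be stated, and groups of 2 or 3 libraries limit all tests.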
